A study of Mus musculus with 10 samples.

Results

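Mannose-binding lectin C (Mbl2) and 5 galectins (Lgals1, Lgals2, Lgals3, Lgals4 and Lgals9) were followed in RNA of mouse jejunal epithelial cells. Mbl2 was chosen by its fall between MYO5B-knockout and control mice, which is among the largest falls of the table, and the 5 galectins were placed beside it by name. All 6 genes have a row among the 35275 genes of the table, and all 6 passed the filter on low values. The values of MYO5B-knockout against control mice are therefore given for these 6 genes as a description, with no test, and so are all comparisons of Mbl2.

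All 10 mice were labelled C57BL/6 (on a C57BL/6J background in the study's methods) and carried VillinCreERT2 with both Myo5b alleles floxed, so that tamoxifen removes Myo5b in villin-expressing epithelium and leaves the other cells of the tissue with the gene. The 3 control mice (numbers 2, 4 and 5) received corn oil and were not induced. The 4 MYO5B-knockout mice (3, 5, 6 and 7) received tamoxifen (2 mg) and a vehicle, and the 3 LPA-treated MYO5B-knockout mice (1, 4 and 5) received the same tamoxifen dose and LPA, lysophosphatidic acid, at 3 mg/kg. The cells come from day 4. Tamoxifen and the loss of Myo5b came together in these groups and cannot be told apart, and no induced mouse without floxed alleles was analysed here.

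Lectins are proteins that read sugars. Mannose-binding lectin is a secreted collectin, made mainly by the liver and in the mouse also by the small intestine, which binds mannose-type sugars on microbes and starts the lectin pathway of complement through its associated proteases. Galectins bind galactose-containing glycans, are made in the cytosol and leave the cell without a signal peptide; galectin-4, galectin-2 and galectin-3 are typical products of the villus epithelium, and galectin-4 takes part in apical membrane traffic of enterocytes.

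Levels are in FPKM, which are fragments over gene length (in kilobases) and over the library's reads on genes, so that genes can be compared per length. The libraries held 10949420 to 24470409 reads on genes. Control mouse 2 and MYO5B-knockout mouse 3 had reads on 12242 and 12601 genes, against 17309 to 18267 in the other 8 libraries, and 17.4% and 18% of their reads were mitochondrial, against 1.98% to 3.5%. They are called few-gene libraries here, and results are given with and without them. The libraries labelled MYO5B-knockout 3 and LPA 1 had 1637 and 6568 reads on Xist and 0 on Y-linked genes, although the labels say male, and the free-text label of LPA-treated mouse 1 names both treatments. Myo5b was present at 16.5 to 32 FPKM in control, 10.5 to 13.6 in MYO5B-knockout and 10.3 to 11.7 in LPA-treated mice. All 15 enterocyte markers had reads in every control and every LPA-treated library.

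RefSeq promoter sequences (GRCm38.p6) were found for 5 of the 6 genes, Lgals1 being the other. The 250 bases before the RefSeq start are shown for Mbl2, the gene that fell. They are also shown for Lgals2 and Lgals4, the most abundant galectins, whose group ranges overlapped with all libraries included. Capitals mark 6-letter motifs searched on both strands: GTTAAT for HNF1, AGGTCA for nuclear receptors, TTTATG with its variant TTTATT for CDX, AGATAA with its variant TGATAA for factors of the GATA family, and TATAAA as the TATA box.
Mbl2, chr19:30232678-30232927, plus strand: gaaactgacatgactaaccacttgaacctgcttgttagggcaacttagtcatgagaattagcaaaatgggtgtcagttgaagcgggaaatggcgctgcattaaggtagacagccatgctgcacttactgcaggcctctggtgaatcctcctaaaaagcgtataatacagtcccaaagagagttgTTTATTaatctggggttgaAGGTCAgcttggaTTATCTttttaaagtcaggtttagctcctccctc
Lgals2, chr15:78855530-78855779, minus strand: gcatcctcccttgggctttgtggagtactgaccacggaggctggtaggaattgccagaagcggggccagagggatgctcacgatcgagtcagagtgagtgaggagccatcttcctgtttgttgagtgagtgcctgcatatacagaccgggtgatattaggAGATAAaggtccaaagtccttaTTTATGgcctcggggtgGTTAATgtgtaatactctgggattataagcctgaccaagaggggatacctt
Lgals4, chr7:28833544-28833793, plus strand: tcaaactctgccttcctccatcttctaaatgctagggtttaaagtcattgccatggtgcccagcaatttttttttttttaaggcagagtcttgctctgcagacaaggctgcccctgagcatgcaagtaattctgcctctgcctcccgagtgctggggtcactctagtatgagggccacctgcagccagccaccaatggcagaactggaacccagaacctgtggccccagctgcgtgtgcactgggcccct
The Mbl2 window held TTTATT beginning 66 bases before the start, AGGTCA at 47 and AGATAA, on the opposite strand, at 34. The Lgals2 window held AGATAA at 90, TTTATG at 68 and GTTAAT at 51. No motif of the list lay in the Lgals4 window, nor in those of Lgals3 and Lgals9. Of 32851 promoters of the same length, 25.5% held a CDX motif, 16.6% a GATA motif, 14% the nuclear receptor motif, 12.4% TATAAA and 6.43% GTTAAT. These matches describe letters only, and no binding was measured.

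Mbl2 (ENSMUSG00000024863, chromosome 19 from 30232928 to 30239685, plus strand) was well expressed in control jejunum and close to absent after induction. The control mice 2, 4 and 5 held 27.8, 31.4 and 41.5 FPKM, from 338, 533 and 800 reads. MYO5B-knockout mice 3, 5, 6 and 7 held 0, 0.316, 0.178 and 0.644 FPKM, from 0, 6, 4 and 16 reads. LPA-treated mice 1, 4 and 5 held 0.0371, 0.157 and 0.204 FPKM, from 1, 3 and 3 reads. Every control library thus lay far above all 7 induced libraries, including the control library with few genes. In rank, Mbl2 stood between 1753 and 2178 among all genes of the control libraries by FPKM, and between 11136 and 16714 in the induced libraries. The 0 reads of MYO5B-knockout mouse 3 allow up to 3 reads, or 0.249 FPKM.

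Group means of Mbl2 were 33.6 ± 7.1 FPKM (SD, n = 3) in control, 0.285 ± 0.27 (SD, n = 4) in MYO5B-knockout and 0.133 ± 0.086 (SD, n = 3) in LPA-treated mice. The control mean was 118-fold that of MYO5B-knockout mice, and 96.1-fold without the few-gene libraries. The log2(FPKM + 0.1) difference was -6.77 (standard error 0.67), or -6.36 without those libraries, and 2 of the 15729 genes compared had a lower difference. This contrast chose the gene, and the level in the few induced reads makes the log2 value depend on the added 0.1 (-7.87 with 0.01 and -4.75 with 1). In these bulk samples, fewer cells that make Mbl2 and less Mbl2 RNA per cell cannot be told apart.

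**Figure D1:**
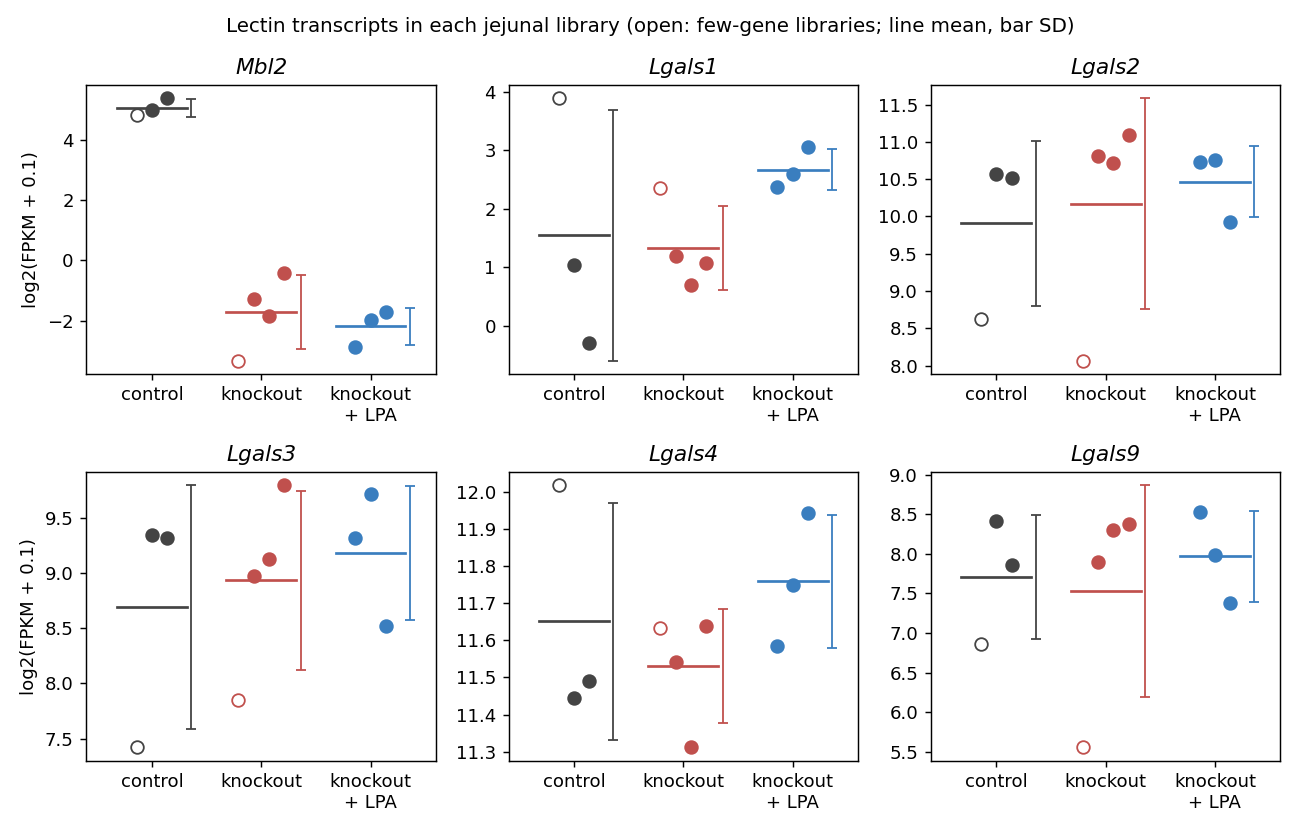
Each panel plots the log2(FPKM + 0.1) of 1 gene (vertical axis) in the libraries of the control, MYO5B-knockout and LPA-treated MYO5B-knockout mice; lines are group means, bars the SD, and open circles the few-gene libraries. Mbl2 is high in all 3 control libraries and low in the 7 others, whereas the galectin groups overlap apart from Lgals1 between LPA-treated and MYO5B-knockout mice.

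Mbl2 was also close to absent in the mice that received LPA. Their difference from control mice was -7.23 on the log2(FPKM + 0.1) scale (standard error 0.71), or -7.36 without the few-gene libraries. With all libraries, 3 of 3 mice lay below every control mouse, and 26.9% of all genes did not overlap in this comparison. Their difference from MYO5B-knockout mice was -0.46 (standard error 0.67), or -1.0 without the few-gene libraries, and these groups overlapped. The comparisons share the control or the MYO5B-knockout libraries with the contrast that chose Mbl2, so both differences are given as a description, with no test.

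Summed over mice, Mbl2 had 1671 of 43950555 gene reads in control, 26 of 71182648 in MYO5B-knockout and 7 of 55097778 in LPA-treated mice. The share was 104-fold higher in control than in MYO5B-knockout mice and 299-fold higher than in LPA-treated mice. Of the 26 reads, 16 came from MYO5B-knockout mouse 7. In that library the 10 hepatocyte markers summed to 79.6 FPKM, against 0 to 4.47 in the other MYO5B-knockout libraries, with Alb (albumin) at 47.8 FPKM and Ahsg (fetuin-A) at 13.9. The sum was 3.98 to 4.25 FPKM in control and 2.88 to 21.5 in LPA-treated mice, and Fga, Fgb and Fgg, the fibrinogen chains, had 0 reads in all 3 control libraries. In control mice 2, 4 and 5, where Mbl2 was high, Alb was at 0, 0.127 and 0.196 FPKM. The part of liver RNA in any of these levels was not tested.

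By their median, the enterocyte markers were lower in both induced groups than in control mice, though Alpi, Apob and Apoa4 averaged higher. Fabp1 averaged higher in LPA-treated mice alone (15748 FPKM against 9717 in control and 7399 in MYO5B-knockout mice). For Apob and Apoa4 in LPA-treated mice, the higher mean rested on control mouse 2. That library held 24.9 and 120 FPKM, against 124 and 2249 in control mouse 4 and 133 and 2480 in control mouse 5. The median log2 difference was -0.995 between MYO5B-knockout and control mice and -1.09 between LPA-treated and control mice. For all genes tested it was 0.29 and 0.41. The 15 markers summed to 32175 to 43260 FPKM in control, 14694 to 27676 in MYO5B-knockout and 23334 to 44189 in LPA-treated mice. Lct (lactase) averaged 185 FPKM in control, 1.4 in MYO5B-knockout and 0.212 in LPA-treated mice, whereas Alpi (intestinal alkaline phosphatase) averaged 359, 783 and 882 FPKM. Lct and Slc5a1 (the sodium-glucose cotransporter), 2 of the 15, were called lower in LPA-treated than in control mice, beside 2.32% of all genes called, and Lct alone in MYO5B-knockout against control mice, beside 2.01%. When the few-gene libraries were left out, 7 and 4 of the 15 were called lower in these comparisons, beside 9.98% and 6.52% of all genes called, and none was called higher. Their part in the level of Mbl2 was not tested.

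The genes most like Mbl2 by Pearson's r of log2(FPKM + 0.1) over the 10 libraries, in a search of 10575 genes averaging 1 FPKM or more, were Tgfbi, Dio1, Dcaf11, Fbln1 and Rec8. These r values, 0.99, 0.98, 0.98, 0.98 and 0.97, describe libraries that fall into separate groups. Tgfbi, an extracellular matrix protein, held 108 ± 21.6 FPKM (SD, n = 3) in control, 13.2 ± 5.82 (n = 4) in MYO5B-knockout and 12.1 ± 1.73 (n = 3) in LPA-treated mice. Dio1, the type 1 deiodinase that activates thyroid hormone, held 51.4 ± 19.3, 0.343 ± 0.281 and 0.336 ± 0.198 FPKM in the same groups (SD, n = 3, 4 and 3). Both were lower in the induced groups, where Dio1, like Mbl2, stayed under 1 FPKM on average. Fbln1, a matrix glycoprotein, held 77.7 ± 17.9, 9.86 ± 2.26 and 8.59 ± 1.47 FPKM (SD, n = 3, 4 and 3).

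The genes that work beside Mbl2 were at trace level. Of the 10 other collectins, ficolins and associated proteases of the list, 1 had a mean that allowed a test, and it was not called in any comparison. That gene, Fcna (ficolin A, a fibrinogen-like lectin of macrophages), held 0.677 FPKM on average in control, 0.509 in MYO5B-knockout and 0.424 in LPA-treated mice. Colec11, a collectin, averaged 0, 0.0674 and 0.046 FPKM. Mbl1, the gene of the other mouse mannose-binding lectin, had reads in MYO5B-knockout mouse 7 alone, at 0.192 FPKM. Masp1 and Masp2, the proteases that mannose-binding lectin activates, did not exceed 0.0805 FPKM in any library. Sftpa1, Sftpd and Fcnb were at 0 in all 10 libraries.

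Of the 20 genes for complement proteins downstream and their regulators, 12 were tested, and C8g, the lipocalin-like gamma chain of complement component C8, was the only one called, in both comparisons with control mice (where 2.01% of all genes were called with the vehicle and 2.32% with LPA). C8g held 7.48, 4.91 and 5.96 FPKM in control mice 2, 4 and 5. In MYO5B-knockout mice 3, 5, 6 and 7 it held 1.03, 1.21, 1.36 and 1.5 FPKM, and in LPA-treated mice 1, 4 and 5 it held 0.995, 0.754 and 0.587 FPKM. The 3 groups did not overlap, with the LPA-treated mice lowest; of all genes, 17.2% did not overlap between MYO5B-knockout and control, 26.9% between LPA-treated and control and 4.16% between LPA-treated and MYO5B-knockout mice. The log2 difference was -2.17 between MYO5B-knockout and control mice (limma's adjusted p = 0.0244), -2.83 between LPA-treated and control mice (limma's adjusted p = 0.00853) and -0.66 between LPA-treated and MYO5B-knockout mice (limma's adjusted p = 1). The median log2 difference of the 12 genes was -0.16 between MYO5B-knockout and control mice and 0.43 between LPA-treated and control mice, beside 0.29 and 0.41 for all genes tested. The alpha and beta chains of the same component, C8a and C8b, did not exceed 0.168 FPKM in any library. In control mice C8g was thus expressed while C8a and C8b were near 0, and Mbl2 while Masp1 and Masp2 were near 0. Other complement genes of the list were not, with C2 and C4b averaging 1.45 and 0.79 FPKM in control mice.

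The galectins stood in the same order in every library. Lgals4 was highest, followed by Lgals2, Lgals3, Lgals9 and Lgals1, in 10 of 10 libraries. Across libraries the ranges were 2541 to 4150 FPKM for Lgals4, 268 to 2182 for Lgals2, 171 to 893 for Lgals3, 46.8 to 371 for Lgals9 and 0.714 to 14.7 for Lgals1. The ranges of Lgals2 and Lgals3, and of Lgals3 and Lgals9, overlapped, so these neighbours differed within each library but not beyond the spread between libraries. Those of Lgals4 and Lgals2, and of Lgals9 and Lgals1, did not overlap. Mbl2 stood above Lgals1 in the 3 control libraries and below it in the 7 induced ones.

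Lgals4 (ENSMUSG00000053964, chromosome 7 from 28833854 to 28841708, plus strand) encodes galectin-4, with a pair of sugar-binding domains joined by a linker. It was among the 34 most abundant genes by FPKM in each of the 10 libraries and took 0.352% to 0.574% of the gene reads. Control mice 2, 4 and 5 held 4150, 2786 and 2879 FPKM, MYO5B-knockout mice 3, 5, 6 and 7 held 3177, 2982, 2541 and 3188, and LPA-treated mice 1, 4 and 5 held 3073, 3442 and 3934. With all libraries the groups overlapped, and the overlap of LPA-treated with control mice rested on control mouse 2, a few-gene library. With all libraries, Lgals4 also varied least of the 5 galectins within each group, with an SD of 10.2% to 23.3% of the mean. This did not hold for control mice 4 and 5 alone, with 2.33% for Lgals4, 2.26% for Lgals2 and 1.15% for Lgals3. The log2 difference was -0.12 for MYO5B-knockout against control mice (standard error 0.32), 0.11 between LPA-treated and control mice (95% interval -0.66 to 0.88, limma's adjusted p = 0.904) and 0.23 between LPA-treated and MYO5B-knockout mice (95% interval -0.49 to 0.95, limma's adjusted p = 1). Without the few-gene libraries, LPA-treated mice differed from control mice by 0.29 (95% interval -0.38 to 0.96, limma's adjusted p = 0.564). The share of all genes whose groups separate without those libraries was not counted. With median-ratio scaling of all libraries, the difference from control mice was -0.27 in LPA-treated mice, so its sign depended on the scaling. Reads of a near-identical copy of Lgals4 that some strains carry could be counted on it, and a separate value for that copy was not used here.

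Lgals2 (ENSMUSG00000043501, chromosome 15 from 78850862 to 78855529, minus strand) encodes galectin-2, a small galectin that acts as a dimer. Control mice 2, 4 and 5 held 397, 1518 and 1470 FPKM, MYO5B-knockout mice 3, 5, 6 and 7 held 268, 1802, 1686 and 2182, and LPA-treated mice 1, 4 and 5 held 1692, 1731 and 970. The lowest values were those of the few-gene libraries, and among the other 8 libraries LPA-treated mouse 5 was lowest. The log2 difference was 0.27 for MYO5B-knockout against control mice (standard error 0.75), 0.56 between LPA-treated and control mice (95% interval -1.20 to 2.32, limma's adjusted p = 0.756) and 0.29 between LPA-treated and MYO5B-knockout mice (95% interval -1.36 to 1.94, limma's adjusted p = 1). The last 2 differences were -0.08 and -0.41 without the few-gene libraries, so their sign rested on those libraries. In the other libraries, MYO5B-knockout mice had a mean of 1890 FPKM against 1494 in control mice, a log2 difference of 0.33 (standard error 0.33). Cdc42ep1 overlaps Lgals2 on the opposite strand with 0.617% as many reads.

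Lgals3 (ENSMUSG00000050335, chromosome 14 from 47367751 to 47386160, plus strand) encodes galectin-3, which forms larger assemblies through its tail and is found in apical transport of enterocytes and in macrophages. Control mice 2, 4 and 5 held 171, 651 and 640 FPKM, MYO5B-knockout mice 3, 5, 6 and 7 held 230, 503, 559 and 893, and LPA-treated mice 1, 4 and 5 held 639, 841 and 367. The groups overlapped, with the few-gene libraries again lowest. The log2 difference was 0.24 for MYO5B-knockout against control mice (standard error 0.58), 0.49 between LPA-treated and control mice (95% interval -0.88 to 1.86, limma's adjusted p = 0.729) and 0.25 between LPA-treated and MYO5B-knockout mice (95% interval -1.04 to 1.53, limma's adjusted p = 1). Leaving out the few-gene libraries turned the last 2 to -0.15 and -0.12.

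Lgals9 (ENSMUSG00000001123, chromosome 11 from 78962974 to 78984946, minus strand) encodes galectin-9, a galectin with paired sugar-binding domains known as a ligand of T cell receptors such as TIM-3. Control mice 2, 4 and 5 held 116, 341 and 232 FPKM, MYO5B-knockout mice 3, 5, 6 and 7 held 46.8, 239, 316 and 333, and LPA-treated mice 1, 4 and 5 held 371, 254 and 167. The groups overlapped here too. The log2 difference was -0.18 for MYO5B-knockout against control mice (standard error 0.67), 0.26 between LPA-treated and control mice (95% interval -1.32 to 1.84, limma's adjusted p = 0.884) and 0.43 between LPA-treated and MYO5B-knockout mice (95% interval -1.04 to 1.91, limma's adjusted p = 1). They were -0.17 and -0.23 without the few-gene libraries, and median-ratio scaling between libraries turned the first of them to -0.12. Among leukocyte markers, Cd74, an MHC class II chaperone, made up most of their sum and averaged 1690 FPKM in control, 296 in MYO5B-knockout and 142 in LPA-treated mice, and the T cell gene Cd3g averaged 17.4, 3.07 and 1.86. Macrophage and other myeloid genes of the list went different ways. C1qb (3.22, 1.52 and 6.9 FPKM), Cd68 (0.461, 0.652 and 1.96) and Csf1r (0.796, 0.763 and 1.27) were highest on average in LPA-treated mice. C1qa (25.6, 8.81 and 23.8) was highest in control mice, with 67.9 FPKM in control mouse 2. Fcer1g and Itgax were also highest in control mice, and Itgam (1.09, 1.87 and 1.55) was highest in MYO5B-knockout mice. The part of these cells in the level of Lgals9 was not tested.

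**Figure D2:**
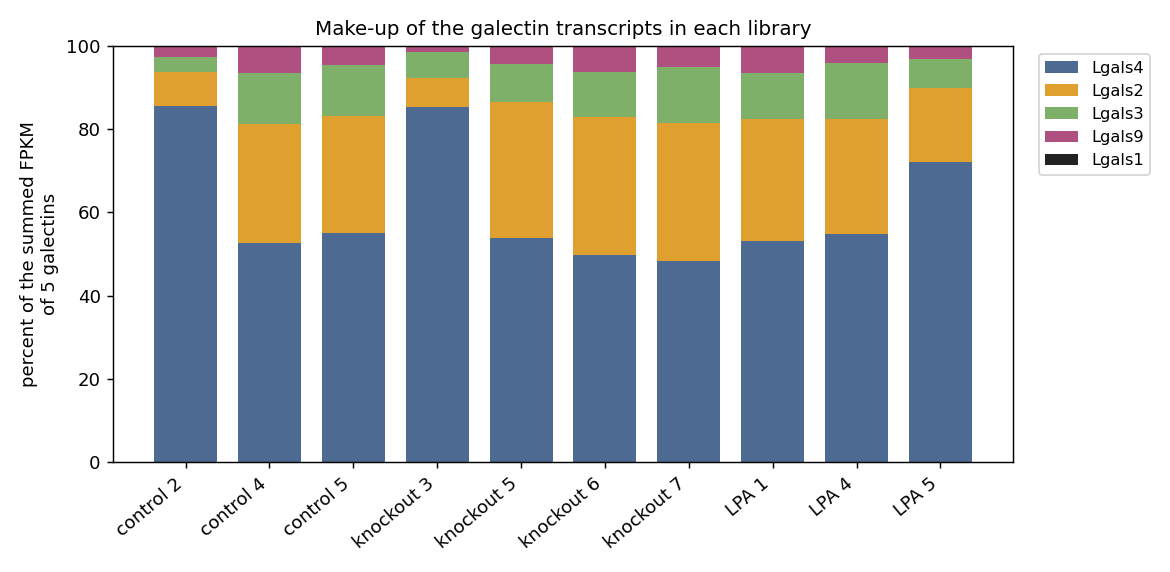
Stacked bars give the percent of the summed FPKM of 5 galectins (vertical axis) that each gene took in each of the 10 libraries (horizontal axis, by group and mouse). Lgals4 takes 85.6% and 85.2% in the 2 few-gene libraries, 72.2% in LPA-treated mouse 5 and 48.3% to 55.1% in the other 7.

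The make-up of the galectin transcripts varied between libraries of the same group. The 5 galectins summed to 4849, 5297 and 5223 FPKM in control mice 2, 4 and 5, to 3727, 5529, 5104 and 6598 in MYO5B-knockout mice 3, 5, 6 and 7 and to 5779, 6273 and 5446 in LPA-treated mice 1, 4 and 5. Lgals2 took 8.18% and 7.19% of the sum in control mouse 2 and MYO5B-knockout mouse 3, 17.8% in LPA-treated mouse 5 and 27.6% to 33.1% in the others. LPA-treated mouse 5 thus stood between the few-gene libraries and the rest in these shares, with 17748 genes detected and 3.5% mitochondrial reads.

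**Figure D3:**
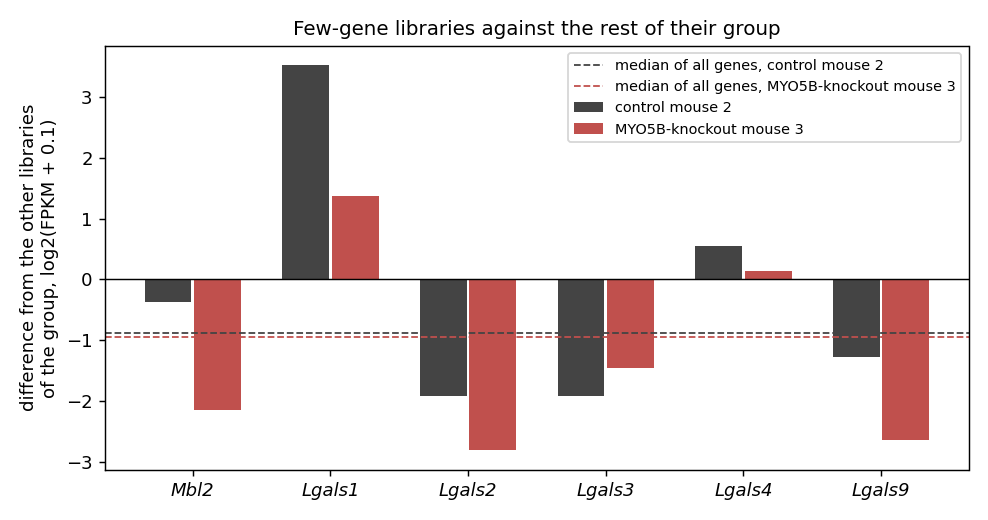
Bars give the difference in log2(FPKM + 0.1) (vertical axis) of each gene (horizontal axis) between a few-gene library, control mouse 2 or MYO5B-knockout mouse 3, and the mean of the other libraries of its group, and dashed lines the median over all genes tested. Lgals1 and Lgals4 lie above 0 and Lgals2, Lgals3 and Lgals9 below it in both libraries.

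In both few-gene libraries the galectins departed from the rest of their group in the same directions. Control mouse 2 held 26.5% of the mean of control mice 4 and 5 for Lgals2, 26.5% for Lgals3 and 40.6% for Lgals9, but 146% for Lgals4. MYO5B-knockout mouse 3 held 14.2%, 35.3% and 15.8% of the mean of its group for Lgals2, Lgals3 and Lgals9, and 109% for Lgals4. On the log2 scale, Lgals1 was higher by 3.52 in control mouse 2 and by 1.37 in MYO5B-knockout mouse 3, while the median of all genes was -0.88 and -0.95. For Mbl2 the control library was 76.2% of its group, so the gap between control and induced mice was present with and without it.

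Lgals1 (ENSMUSG00000068220, chromosome 15 from 78926725 to 78930465, plus strand) encodes galectin-1, a dimer made mainly by stromal, endothelial and immune cells, and starts 71196 bases past the end of Lgals2. Control mice 2, 4 and 5 held 14.7, 1.95 and 0.714 FPKM, MYO5B-knockout mice 3, 5, 6 and 7 held 5.02, 2.17, 1.53 and 1.99, and LPA-treated mice 1, 4 and 5 held 5.06, 5.92 and 8.16. The LPA-treated libraries lay above all MYO5B-knockout libraries, narrowly so for the few-gene library of mouse 3 (5.02 against 5.06 FPKM). These values rest on 10 to 130 reads per library. Control mouse 2, the other few-gene library, held the highest value of all 10.

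Between LPA-treated and MYO5B-knockout mice, the log2 difference of Lgals1 was 1.34 (standard error 0.83, 95% interval -0.51 to 3.19), higher in 3 of 3 mice, and did not pass the test (limma's adjusted p = 1). Without the few-gene libraries it was 1.68 (standard error 0.38, 95% interval 0.82 to 2.54, limma's adjusted p = 0.372), and over 19 alternatives the adjusted p ran from 0.372 to 1 and the difference from 1.00 to 1.83. The means were 6.38 ± 1.6 FPKM (SD, n = 3) in LPA-treated mice and 2.68 ± 1.59 (SD, n = 4) in MYO5B-knockout mice, or 1.9 ± 0.333 (SD, n = 3) without mouse 3. Against control mice the difference was 1.13 (95% interval -0.85 to 3.10, limma's adjusted p = 0.551). Without the few-gene libraries it was 2.30 (95% interval 1.34 to 3.26, limma's adjusted p = 0.0128), a mean 4.79-fold that of control mice 4 and 5. This was the only 1 of 18 alternatives with an adjusted p under 0.05; the others reached 0.917, and on the recovered reads edgeR and DESeq2 gave -0.49 and -0.59 with control mouse 2 included. Between MYO5B-knockout and control mice the difference was -0.21 (standard error 0.83), and 0.62 without the few-gene libraries.

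The summed stromal and endothelial markers were, like Lgals1, higher in the LPA-treated than in the MYO5B-knockout libraries. Outside the few-gene libraries, the LPA-treated mice were highest in both, in the same order. For LPA-treated mouse 1 both statements rested on Vim, the vimentin gene, which made up 4.9 of its sum of 6.45 FPKM. With Vim left out, its sum lay below those of MYO5B-knockout mice 3 and 7, narrowly so for mouse 7. In these sums, the few-gene libraries, control mouse 2 and MYO5B-knockout mouse 3, departed from this likeness. For MYO5B-knockout mouse 3 the departure rested on Vim, at 0.333 FPKM against 2.3 to 3.92 in the rest of its group. With Vim left out, its sum was the highest of its group, as was its Lgals1. All 12 markers are in the table, and their sum was 4.42 to 7.91 FPKM in control, 3.15 to 5.51 in MYO5B-knockout and 6.45 to 14.4 in LPA-treated mice. The median log2 difference of the 9 markers tested was 1.44 between LPA-treated and MYO5B-knockout mice, beside 0.11 for all genes, and none of the 9 was called. Vim (vimentin), an intermediate filament of mesenchymal cells, held 0.333 to 3.92 FPKM in MYO5B-knockout and 4.9 to 5.96 in LPA-treated mice, and Col3a1, a fibrillar collagen, held 1.75 and 1.17 FPKM in LPA-treated mice 4 and 5 and 0.235 in LPA-treated mouse 1. Control mouse 2, with the highest Lgals1, had a sum of 7.91 FPKM, below the 13.9 and 14.4 of LPA-treated mice 4 and 5. MYO5B-knockout mouse 3, highest of its group in Lgals1, had a sum of 3.55 FPKM, below the 4.18 and 5.51 of MYO5B-knockout mice 5 and 7. No marker of the list was at 0 in every library of a group. The part of such cells in the level of Lgals1 was not tested.

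**Figure D4:**
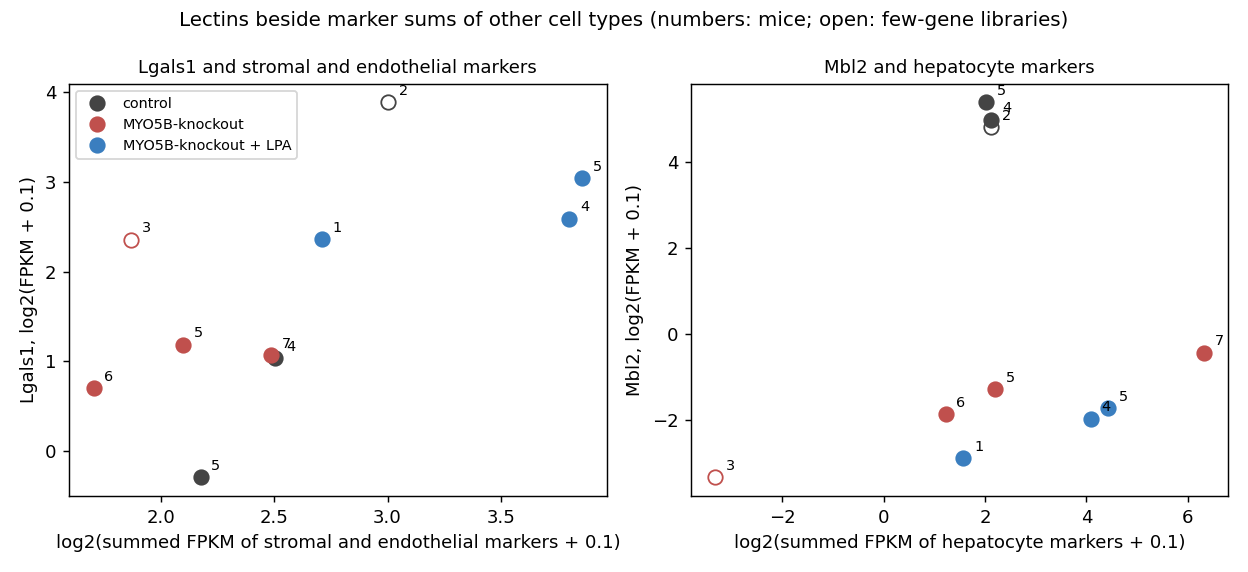
Left, the log2(FPKM + 0.1) of Lgals1 (vertical axis) against the log2 of the summed FPKM of 12 stromal and endothelial markers + 0.1 (horizontal axis); right, the same for Mbl2 and 10 hepatocyte markers, each point being 1 library labelled with its mouse number and open circles the few-gene libraries. LPA-treated mice 4 and 5 lie at the right of the left panel, with sums of 13.9 and 14.4 FPKM, and the 3 control libraries lie together at the top of the right panel with sums of 3.98 to 4.25 FPKM.

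The genes most like each galectin by the same measure were Saa3, Ckb and Plvap for Lgals1, with r of 0.95, 0.94 and 0.93. Plvap, a protein of fenestrated endothelium, held 1.39 ± 2.22 FPKM (SD, n = 3) in control, 0.418 ± 0.599 (n = 4) in MYO5B-knockout and 1.41 ± 0.822 (n = 3) in LPA-treated mice. For Lgals2 they were Atp6v0c, Sec13 and Tnfrsf1a (r 0.99 each), and for Lgals3 they were Myl12b, Ldha and Agpat2 (0.98, 0.97 and 0.97). For Lgals9 they were Skiv2l, Cog4 and Cyb561a3 (0.99, 0.98 and 0.98), and for Lgals4 they were Gstt2, Dennd6b and Stk19 (0.96, 0.94 and 0.93). Over the 8 libraries other than the few-gene ones, the r of the 3 genes named for Lgals2 was 0.93, 0.88 and 0.91. All points share the depth and make-up of their library.

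Counted over the 5 galectins, the comparison of LPA-treated with MYO5B-knockout mice called none, as for all 15729 genes tested (0%, with 459 genes at an unadjusted p under 0.05, 0 calls by edgeR and 6 by DESeq2). In that comparison the groups did not overlap for 1 of the 5 (Lgals1) and for 4.16% of all genes. Between LPA-treated and control mice no galectin was called and the groups overlapped for all 5, where 2.32% of all genes were called and 26.9% did not overlap. Without the few-gene libraries, 1 of the 5 (Lgals1) was called in that comparison, beside 9.98% of all genes. Between MYO5B-knockout and control mice, where 2.01% of all genes were called, the groups did not overlap for 1 of the 6 (Mbl2) and for 17.2% of all genes, from which nothing is read since this contrast chose Mbl2. The median log2 difference of all genes was 0.11, 0.41 and 0.29 in the 3 comparisons, in the order LPA-treated against MYO5B-knockout, LPA-treated against control and MYO5B-knockout against control. The galectin differences are read against these medians: of the LPA-treated against control differences, those of Lgals4 and Lgals9 (0.11 and 0.26) lay below 0.41 and those of Lgals1, Lgals2 and Lgals3 (1.13, 0.56 and 0.49) above it. Without the few-gene libraries this median was 0.14. Lgals1 and Lgals4 (2.30 and 0.29) then lay above it and Lgals2, Lgals3 and Lgals9 (-0.08, -0.15 and -0.17) below. The sides of Lgals2, Lgals3 and Lgals4 thus rested on those libraries.

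**Figure D5:**
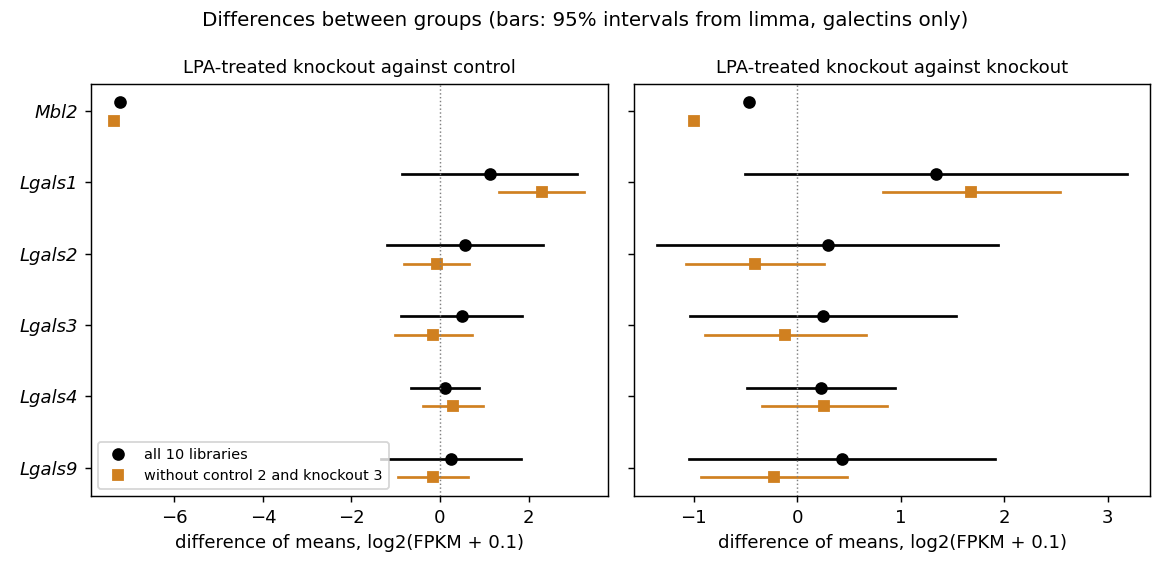
Differences of group means in log2(FPKM + 0.1) (horizontal axis) with 95% intervals from limma (galectins only, Mbl2 being shown without one), for LPA-treated against control mice (left) and LPA-treated against MYO5B-knockout mice (right), with all 10 libraries (black circles) and with the 2 few-gene libraries left out (orange squares). Mbl2 lies at -7.23 on the left, and without the few-gene libraries the interval of Lgals1 lies above 0 on both sides, at 1.34 to 3.26 and 0.82 to 2.54.

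The other galectins and galectin-related genes of the list did not pass the test either. Of 6 in the table, 5 were tested and none was called in any of the 3 comparisons. Lgals3bp, a secreted glycoprotein that binds galectin-3, averaged 78.7 ± 48 FPKM (SD, n = 3) in control, 87.7 ± 51.8 (n = 4) in MYO5B-knockout and 85.3 ± 50.7 (n = 3) in LPA-treated mice. Lgals8, with paired binding domains, averaged 22.8 ± 8.34, 17.7 ± 7.71 and 18.8 ± 6.76 FPKM (SD, n = 3, 4 and 3). Grifin, the lens galectin, was at 0 in all libraries. Lgals3bp, like Lgals2, was lowest in the few-gene libraries, at 25.5 and 12.4 FPKM.

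Enzymes that build galectin-binding glycans had reads in every library of the group for 13 of 14 in control, 11 in MYO5B-knockout and 13 in LPA-treated mice. B3gnt2 was at 0 in control mouse 2, MYO5B-knockout mouse 3 and LPA-treated mouse 5, and B3gnt5 and St6gal1 were at 0 in MYO5B-knockout mouse 3. All 14 N-glycan branching, galactose and sialic acid transfer enzymes of the list were tested and none was called. St3gal4, a sialyltransferase, held 293, 434 and 774 FPKM in control mice 2, 4 and 5 and 139, 282, 7.14 and 494 in MYO5B-knockout mice 3, 5, 6 and 7, with MYO5B-knockout mouse 6 far below the others. Mgat4b, a branching enzyme, averaged 54.6 ± 31.8, 80.3 ± 58.6 and 119 ± 49.2 FPKM in control, MYO5B-knockout and LPA-treated mice (SD, n = 3, 4 and 3). The median log2 difference of the 14 was 0.21 between LPA-treated and MYO5B-knockout mice and -0.02 between LPA-treated and control mice, beside 0.11 and 0.41 for all genes. In the 8 libraries other than the few-gene ones, Mgat4b was called higher (1.64, limma's adjusted p = 0.0325) and Mgat3, the bisecting enzyme, lower (-1.80, limma's adjusted p = 0.0164) in LPA-treated than in control mice, where 9.98% of all genes were called.

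Of the 9 other mucosal lectins, 8 were tested and none was called. Reg3b, a secreted C-type lectin that binds bacterial walls, averaged 12378 ± 9439 FPKM (SD, n = 3) in control, 19224 ± 9878 (n = 4) in MYO5B-knockout and 19930 ± 14613 (n = 3) in LPA-treated mice. Zg16, a goblet cell lectin, averaged 5540 ± 775, 4598 ± 1033 and 8676 ± 3310 FPKM (SD, n = 3, 4 and 3). Per length, Reg3b and Zg16 were each higher than Lgals4 in 10 of 10 libraries. With the few-gene libraries left out, Reg3a (-2.91) and Itln1 (-2.42), both lectins of secretory cells, were called lower in LPA-treated than in control mice, and Reg3a (-2.74) was called lower for MYO5B-knockout against control mice (limma's adjusted p = 0.00189, 0.024 and 0.004). In these fits 9.98% and 6.52% of all genes were called.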

How the data were processed

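RNA of mechanically isolated jejunal epithelial cells was sequenced after poly-T selection, 1 library per mouse (3 control, 4 MYO5B-knockout, 3 LPA-treated MYO5B-knockout). The authors deposited FPKM for 35275 genes and read counts for a few genes; per the labels, the notes name STAR 2.5, TopHat, HTSeq 0.6.1 and DESeq2 with GRCm38 (mm10), and no strand setting was given in the sources used here. FPKM multiplied by gene length were whole multiples of a library's step for 100% of values (tolerance 0.05 reads), and 63 of 63 deposited counts equalled the recovered reads. The deposited gene coordinates of 4 of the 6 members are identical in GENCODE M21. No column was left unused as a sample of another series.

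The 15729 genes that averaged 0.1 FPKM or more were compared on log2(FPKM + 0.1) with limma 3.58.1 (R 4.3.3) in a model of 3 groups with a variance trend, two-sided, with Benjamini-Hochberg adjustment and a threshold of 0.05. A fold change on this scale understates the change of low genes. The p-values measure the spread between these mice. The fit was tested on simulated data. Promoters were searched in Python 3.11.15. Alternatives were other pseudocounts, filters and scalings, libraries left out, a mouse-number block, and edgeR 4.0.16 and DESeq2 1.42.0 on recovered reads. The members and lists were chosen with earlier results of these data known. Named genes were the 6 members, called genes of the lists (otherwise the 2 most abundant) and the 5 (Mbl2) or 3 (galectins) genes of most alike pattern. Genes named beyond this rule (the fibrinogen chains, Masp1, Masp2, Mbl1, C2, C4b, C8a, C8b, Sftpa1, Sftpd, Fcnb, Grifin, B3gnt2, B3gnt5, St6gal1 and single markers) were chosen after their values were seen.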

Additional observations from a re-analysis of the deposited data

How the results depend on the processing

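Below, values are log2 differences and counts are genes with an adjusted p under 0.05; the 3 comparisons are written L-K (LPA-treated against MYO5B-knockout), L-C (LPA-treated against control) and K-C (MYO5B-knockout against control). Over the alternatives listed in processing, Lgals1 stayed positive in L-K (19 of 19), and no galectin was called in L-K. Mbl2 was negative in L-C (18 of 18) and L-K (19 of 19). These comparisons share libraries with the contrast that chose Mbl2, so its sign is a description only. In L-K it was -0.035 with MYO5B-knockout mouse 7 left out. The cause of each change below was not tested. With a pseudocount of 0.01 or 1, Mbl2 in K-C was -7.87 or -4.75, and with no filter the K-C count was 188, against 316. Median-ratio scaling gave Lgals4 -0.27 and Lgals9 -0.12 in L-C, Lgals4 -0.41 in K-C and 598 calls in K-C. Quantile normalization gave 626 calls in L-C, 804 in K-C and Lgals4 0.14 in K-C. Calls split into 243 higher and 122 lower in L-C (221 and 269 with ratios, 300 and 326 with quantiles) and 177 and 139 in K-C (222 and 376, 366 and 438). Fitting only the 2 groups compared gave 243 calls in L-C and 54 in K-C.

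Without the few-gene libraries, Lgals2, Lgals3 and Lgals9 were -0.41, -0.12 and -0.23 in L-K and -0.077, -0.15 and -0.17 in L-C, Lgals1 was 2.30 in L-C and called, and the counts were 1579 in L-C and 1032 in K-C. With the 2 Xist libraries left out, the same 3 genes were -0.54, -0.18 and -0.51 in L-K, and Lgals9 was -0.027 in L-C. With 1 library left out at a time, L-C counts ran from 75 (without LPA-treated mouse 5) to 335, and K-C counts ran between 44 (control mouse 5 left out) and 448 (MYO5B-knockout mouse 3 left out). In the same fits Lgals2, Lgals3 and Lgals9 ran from -0.077 to 0.89, -0.15 to 0.82 and -0.17 to 0.61 in L-C, and from -0.41 to 0.60, -0.12 to 0.58 and -0.23 to 0.73 in L-K. L-C counts were also 131, 87, 124 and 106 without control mouse 4, control mouse 5, LPA-treated mouse 1 and LPA-treated mouse 4, and K-C counts 78, 73, 101 and 170 without control mouse 4 and MYO5B-knockout mice 5, 6 and 7.

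No label says that mouse numbers shared between groups pair the mice. Deviations from group means of same-numbered mice correlated at 0.104, -0.355, 0.3 and -0.214. So few pairs cannot show whether the mice were paired. With the mouse number as a replicate block, which leaves few degrees of freedom, L-C and K-C had 0 calls each, and Mbl2 was -7.02 in L-C. Lgals2, Lgals3 and Lgals9 were then -0.70, -0.16 and -0.51 in L-K and -0.21, -0.22 and -0.45 in L-C, and Lgals1 was 1.04 in K-C.

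On recovered reads, edgeR gave Lgals1, Lgals4 and Lgals9 -0.49, -0.32 and -0.072 in L-C, and Lgals1 and Lgals4 -1.56 and -0.45 in K-C. DESeq2 gave -0.59, -0.38 and -0.11 in L-C, -1.59 and -0.48 in K-C, and 6, 1503 and 1854 calls in L-K, L-C and K-C. Depth limits Mbl2 in induced mice, at 0 to 16 reads a library, and Lgals1, at 10 to 130.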
